A study of Mus musculus with 29 samples.

Results

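Runx1, Runx2 and Runx3 encode the DNA-binding subunits of core binding factor, a transcription factor of blood, bone and lymphoid cells, and Cbfb encodes the partner subunit that binds no DNA itself but strengthens the hold of each Runx protein on its sites. Runx1 is needed for the first blood stem cells and acts later in T cells and myeloid cells, Runx2 is the main regulator of bone-forming cells, and Runx3 acts in cytotoxic T cells, natural killer cells and innate lymphoid cells. Each Runx gene is transcribed from a distal promoter (P1), which is poor in CpG, and from a proximal promoter (P2), which lies in a CpG island, and the transcripts differ in their first coding bases.

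The members were the windows of the genic %DNAm table that the authors had named for 1 of these 4 genes. There were 174 such windows among 260686, namely 66 of Runx1, 72 of Runx2, 24 of Runx3 and 12 of Cbfb. All 174 had a value in each of the 29 libraries and all were among the 259167 windows tested. %DNAm is the percent of methylated cytosine, averaged by the authors over the cytosines of a window of 100 CpG cytosines on both strands, which is about 50 CpGs. The member windows were 269 to 8878 bp long.

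Lung DNA (tissue labelled RML) from 13-week-old Balb/c offspring, described in the study as female, was read by whole genome methyl-seq (WGMS), here the enzymatic kind. The 4 groups were Sham (n = 7) and Sham-OVA (n = 7), whose dams received saline, and PM (n = 7) and PM-OVA (n = 8), whose dams received PM2.5, fine airborne particulate matter. Both were given into the nose from before mating until weaning. The OVA groups had been sensitised to and then challenged with ovalbumin, which induces allergic airways disease (AAD), and the others had inhaled saline in place of it. No group carried an engineered allele. Whole lung tissue was used, so a shift in the mixture of cells and a change within cells cannot be told apart in any difference below. The labels do not tie libraries to litters, and the p-values measure only the spread between these libraries.

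The table of percentages gives no coverage per window, so no counting error can be stated for a value. The mean %DNAm over all tested windows was 69.1 ± 0.367 in Sham, 68.8 ± 0.597 in Sham-OVA, 69.4 ± 0.463 in PM and 68.4 ± 0.392 in PM-OVA (SD). Sham replicate 1 stood apart from the other 28 libraries, with a value in 1224 of 1230 windows of the Y chromosome against 29 to 46 elsewhere, which goes against that description. The member DMRs and counts that rest on Sham, and those of the gene lists, are therefore also given without it further on. No expression was read here, so the labelled tissue was not checked against marker genes.

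The distal promoters of the 3 Runx genes carry one near-identical element, shown here because the windows of these distal starts are compared below. With OVA those of Runx1 and Runx3 were lower, and that of Runx2 was higher in Sham offspring. Capitals mark the 18 bases that all 3 have in common, each written 5′ to 3′ on the strand of the gene (RefSeq, GRCm38.p6).
Runx1 chr16:92826025-92826054 (minus strand): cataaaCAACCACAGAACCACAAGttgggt
Runx2 chr17:44814583-44814612 (minus strand): cacaaaCAACCACAGAACCACAAGtgcggt
Runx3 chr4:135120503-135120532 (plus strand): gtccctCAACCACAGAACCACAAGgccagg

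The shared run holds ACCACA at 2 places, which reads TGTGGT on the other strand, the core of the sequence that Runx proteins bind. In a search of both strands, TGTGGT was found in 16.8% of the 32851 RefSeq promoters of 300 bases, and at 2 or more places in 1.81%. The 18-base run itself was found in 4 promoters. They stood at 3 places in the genome, since the promoter of Gm16225 overlaps that of Runx3 on the other strand. No CpG lies within the 18 bases.

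The proximal promoters of Runx1 and Runx3 are shown for contrast, with each CpG in capitals, as the bases just upstream of the annotated start. The Runx1 stretch lies in windows near 0% DNAm, and most of the Runx3 stretch in 135151738-135152479, a window described below that was not at 0.
Runx1 proximal chr16:92697330-92697579 (minus strand): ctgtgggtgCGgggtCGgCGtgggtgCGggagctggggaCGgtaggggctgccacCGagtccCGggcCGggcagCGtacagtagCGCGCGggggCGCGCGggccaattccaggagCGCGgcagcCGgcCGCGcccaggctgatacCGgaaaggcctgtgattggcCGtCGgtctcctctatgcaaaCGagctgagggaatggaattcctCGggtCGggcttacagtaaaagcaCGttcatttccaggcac
Runx3 proximal chr4:135152295-135152495 (plus strand): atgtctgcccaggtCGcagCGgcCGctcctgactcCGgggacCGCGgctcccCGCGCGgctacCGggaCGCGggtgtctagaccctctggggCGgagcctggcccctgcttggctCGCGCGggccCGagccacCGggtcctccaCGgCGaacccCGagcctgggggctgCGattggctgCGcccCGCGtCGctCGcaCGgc
Runx1 distal chr16:92826150-92826324 (minus strand): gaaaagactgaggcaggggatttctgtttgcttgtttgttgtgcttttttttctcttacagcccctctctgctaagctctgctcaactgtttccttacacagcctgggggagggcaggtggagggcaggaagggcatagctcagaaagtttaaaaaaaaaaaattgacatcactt

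There are 27 CpGs in the 250 bases of the proximal Runx1 stretch and 28 in the 201 bases of the Runx3 stretch. The 175 bases upstream of the distal Runx1 start hold 0. A window of a set number of CpGs is therefore short at the proximal starts and long at the distal ones.

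AAD came with higher %DNAm at both shores of the proximal promoter of Runx1, upstream and farther downstream of that of Runx3, and with lower %DNAm at the distal end of Runx1, in the offspring of Sham and of PM dams alike in direction. A differentially methylated region (DMR) was a window with an adjusted p under 0.05 (limma on a log2 ratio of methylated to unmethylated percent, 2-sided, Benjamini-Hochberg over all tested windows) whose group means lay at least 10 percentage points apart. Between Sham and Sham-OVA, 11 of the 174 windows were DMRs with higher %DNAm after OVA (6 of Runx1 and 5 of Runx3), or 6.32%, against 0.479% of all tested windows. Another 4 were lower (3 of Runx1 and 1 of Runx2), or 2.3%, against 0.296%. Between PM and PM-OVA, 9 were higher (6 of Runx1 and 3 of Runx3), or 5.17% against 0.263%, and 3 were lower, all of Runx1, or 1.72% against 0.321%. Cbfb had 0 DMRs in either comparison. At an adjusted p under 1e-06, a stricter limit on p taken from the study, 5 higher and 2 lower windows were left in Sham offspring (0.173% and 0.225% of all tested windows) and 4 higher and 1 lower in PM offspring (0.0884% and 0.266%). These were windows of Runx1 and, for 1 of the lower ones in Sham offspring, of Runx2. No Runx3 window and not the distal Runx1 start was a DMR at that limit in either comparison. The Runx3 window 135145248-135147642 had an adjusted p of 5.78e-09 in Sham offspring (limma) but a difference of 9.86 points.

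Without the demand for 10 points, 52 member windows were higher and 32 lower in Sham-OVA than in Sham, or 29.9% and 18.4%, where 13.3% and 22.3% of all tested windows were. For PM-OVA against PM the members gave 40 higher and 38 lower, or 23% and 21.8%, where 9.26% and 34.8% of all windows were. This last split moved to 68 higher and 26 lower, or 39.1% and 14.9%, against 21.8% and 20.4% of all tested windows, after libraries had been centred, each by how far its windows lay from their mean over all libraries at the median. With the library mean as a covariate it was 44 higher and 24 lower, or 25.3% and 13.8%, against 12.5% and 13.5% of all windows. The centring moved the median difference over all windows from -1.03 to -0.0534 points.

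**Figure D1:**
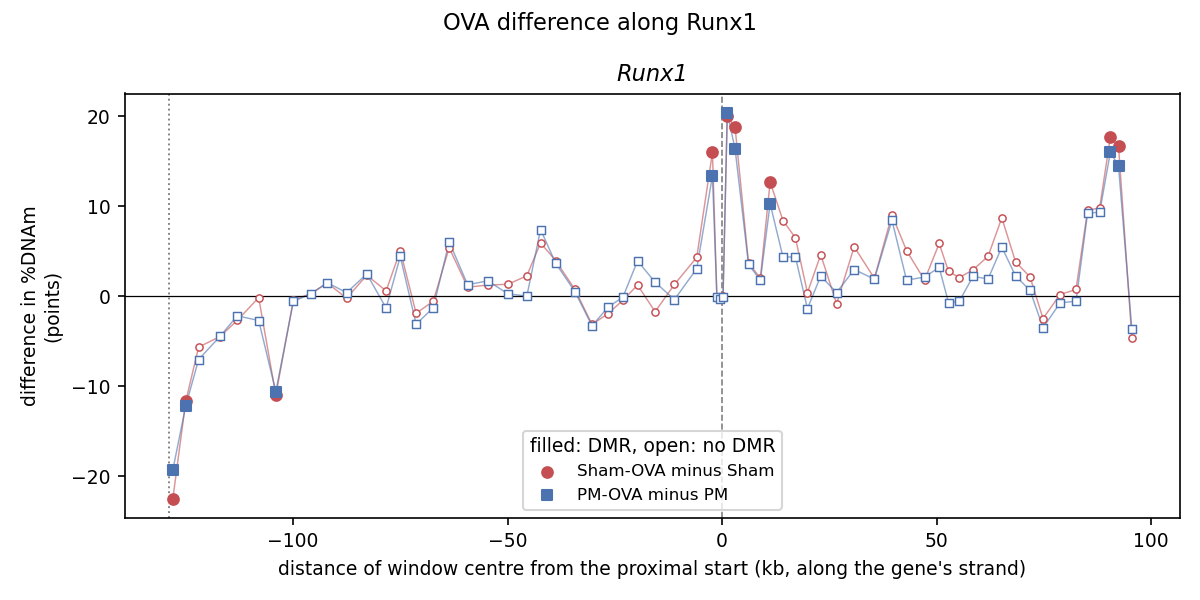
Difference in %DNAm (percentage points) of each of the 66 Runx1 windows against the distance of its centre from the proximal start in kb, with upstream to the left. Circles stand for Sham-OVA minus Sham and squares for PM-OVA minus PM, filled symbols are DMRs, the dashed line is the proximal start and the dotted line the distal start. The largest gain (20 and 20.4 points) lies beside the proximal start and the largest fall (22.5 and 19.3 points) at the distal start.

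In Runx1 the proximal start lies at chr16:92697328 and the distal start at 92826149 (minus strand, GENCODE M21), 129 kb apart. The window 92824497-92826928 holds the distal start, with exons 1 and 2 of the longest transcript. Its %DNAm ran from 53.8 over a median of 55.8 to 65.6 in Sham, and from 27.9 over 33.7 to 43.7 in Sham-OVA. In PM it ran from 41.5 over 54.9 to 58.6, and in PM-OVA from 27.6 over 32.5 to 44.5. Every Sham library was above every Sham-OVA library, whereas PM replicate 1, at 41.5, was below PM-OVA replicates 5 and 6, at 42.3 and 44.5.

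The mean at the distal Runx1 start was 57.5 ± 4.27 in Sham and 35 ± 5.99 in Sham-OVA (SD, n = 7 and 7), a difference of -22.5 points (adjusted p = 1.2e-06, limma). Between PM (53.4 ± 5.66) and PM-OVA (34.1 ± 6.33, n = 8) it was -19.3 points (adjusted p = 4.01e-06, limma). Of the 174 windows this one had the lowest value of both differences. Its 300 intronic or intergenic bases that are richest in CpG are shown with the CpGs in capitals as a view of that window. The table gives 1 mean per window, so no value belongs to these CpGs alone, here or in the stretches of other windows below.
Runx1 distal window chr16:92825245-92825544 (minus strand): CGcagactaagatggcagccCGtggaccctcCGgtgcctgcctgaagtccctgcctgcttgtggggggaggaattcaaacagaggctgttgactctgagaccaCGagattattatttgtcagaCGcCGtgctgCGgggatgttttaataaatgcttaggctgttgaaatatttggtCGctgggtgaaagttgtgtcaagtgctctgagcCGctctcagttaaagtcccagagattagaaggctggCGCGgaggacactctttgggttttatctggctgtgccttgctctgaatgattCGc

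The next window into the gene, 92820676-92824484 in intron 2, fell by 11.7 points from 58 ± 2.36 to 46.3 ± 2.76 in Sham offspring (adjusted p = 2.72e-07, limma) and by 12.2 points from 59.4 ± 2.43 to 47.3 ± 2.72 in PM offspring (adjusted p = 5.52e-08). Here no OVA library reached the lowest library without OVA, since the highest Sham-OVA value was 51.7 and the lowest Sham value 55.3. The window after it, 92817243-92820625, was lower too but no DMR. With libraries left out one by one, its difference ran from -6.09 to -5.34 points in Sham offspring and from -7.33 to -6.68 in PM offspring. The highest adjusted p in those fits was 3.46e-06 and 7.44e-08 (limma). Another DMR with lower %DNAm in the same intron was 92799612-92802950, between the distal and the proximal start. It went from 68.8 ± 1.93 to 57.8 ± 5.16 and from 69.2 ± 3.07 to 58.5 ± 3.59. This one sat close to the 10-point limit, with differences of -11 and -10.6 points, and was no DMR without Sham-OVA replicate 6 (-9.57) or without PM replicate 7 (-9.87).

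The CpG island around the proximal Runx1 start was unmethylated in each group. Window 92696740-92697455, which holds that start, ran from 0.168 over a median of 0.608 to 2.27% in Sham and from 0.237 over 0.492 to 2.41% in Sham-OVA. In PM the range was 0.248 to 0.839% and in PM-OVA 0.162 to 1.23%. The pair of windows upstream of it, from 92697461 to 92698889, had group means between 0.435 and 1.27%. None of these 3 passed the test with OVA in either comparison (adjusted p from 0.193 to 0.941, limma). After centring, 92696740-92697455 (adjusted p = 0.0187) and 92698158-92698889 (0.0156, limma) passed in PM offspring, with 0.749 and 0.772 points.

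On the downstream shore, window 92695534-92696712 consists of exon sequence, holds the start of another coding transcript and rose the most. It ran from 11.1 over a median of 14.3 to 22.1% in Sham, and from 27.1 over 37.4 to 42% in Sham-OVA. Offspring of PM dams gave 10.7 over 15.2 to 20.2% without OVA, and 23.5 over 36.3 to 45.5% with it. Neither pair of groups overlapped. The differences were 20 points (14.9 ± 3.67 to 34.9 ± 6.11, adjusted p = 8.13e-07) and 20.4 points (15.6 ± 3.85 to 36 ± 6.5, adjusted p = 3.5e-07, limma).

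The window beyond it, 92693074-92695516, which holds 1 more such start, went from 28.7 ± 4.1 to 47.5 ± 4.96 in Sham offspring and from 29.7 ± 3.17 to 46.1 ± 4.35 in PM offspring. Its adjusted p was 2.24e-07 and 6.62e-07 (limma), and again the groups did not overlap. The intronic stretch of this window with most CpGs is shown with its 13 CpGs in capitals.
Runx1 downstream shore chr16:92694660-92694959 (minus strand): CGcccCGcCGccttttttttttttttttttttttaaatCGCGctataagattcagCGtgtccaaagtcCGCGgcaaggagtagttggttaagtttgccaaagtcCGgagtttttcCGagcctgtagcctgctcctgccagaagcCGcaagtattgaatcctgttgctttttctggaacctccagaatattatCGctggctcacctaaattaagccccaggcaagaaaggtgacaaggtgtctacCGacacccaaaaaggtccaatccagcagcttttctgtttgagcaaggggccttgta

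The upstream shore, 92698890-92700248 in intron 2, rose from 26.2 ± 3.16 to 42.1 ± 3.21 (adjusted p = 6.35e-07) and from 27.6 ± 5 to 41 ± 3.33 (adjusted p = 2.77e-06, limma). The next window on that side, 92700406-92706055, was no DMR. A window with part of an exon 11.2 kb downstream of the proximal start, 92684688-92687516, rose from 55.8 ± 2.22 to 68.6 ± 3.33 and from 57.2 ± 2.69 to 67.5 ± 1.78. In PM offspring that is a difference of 10.3 points, which fell under the limit without PM replicate 3, PM replicate 5 or PM-OVA replicate 1 (9.65 at the lowest).

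Part of the last exon of Runx1, number 8, which encodes the end of the protein and the 3′ untranslated region, had another group of gains. Window 92604021-92605896, all within that exon, went from 51.8 ± 3.81 to 68.5 ± 3.54 (adjusted p = 2.66e-08) and from 54.4 ± 2.5 to 68.9 ± 2.64 (adjusted p = 6.97e-08, limma). Window 92605900-92607718, which runs on into intron 7, went from 47.7 ± 4.49 to 65.4 ± 6.42 and from 49.3 ± 4.77 to 65.4 ± 6.03. The groups with and without OVA did not overlap in either window. The far end of that exon went the other way. Window 92599727-92604015, with 2550 bp of exon, differed by -4.6 points in Sham offspring (adjusted p = 0.000632, limma). In PM offspring it differed by -3.61 points (adjusted p = 0.003), a call lost with the library mean as a covariate (0.135, limma). The next windows up the gene, 92608097-92610468 and 92610617-92613541, gained 9.8 and 9.59 points in Sham offspring and 9.33 and 9.26 points in PM offspring, just under the limit.

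Across the 32 Runx1 windows downstream of the proximal start, 21 were higher and 1 lower in Sham-OVA at an adjusted p under 0.05, with a median difference of 4.14 points. Across the 34 windows between the distal and the proximal start, 7 were higher and 9 lower, with a median of 0.0772 points. For PM-OVA against PM the counts were 17 higher and 2 lower downstream, and 8 higher and 9 lower upstream. Downstream these were 65.6% higher and 3.12% lower in Sham offspring and 53.1% and 6.25% in PM offspring, against 13.3% and 22.3% and against 9.26% and 34.8% of all tested windows. Upstream they were 20.6% higher and 26.5% lower in Sham offspring and 23.5% and 26.5% in PM offspring. Without Sham replicate 1 the Sham counts were 20 higher and 1 lower downstream and 6 and 9 upstream.

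**Figure D2:**
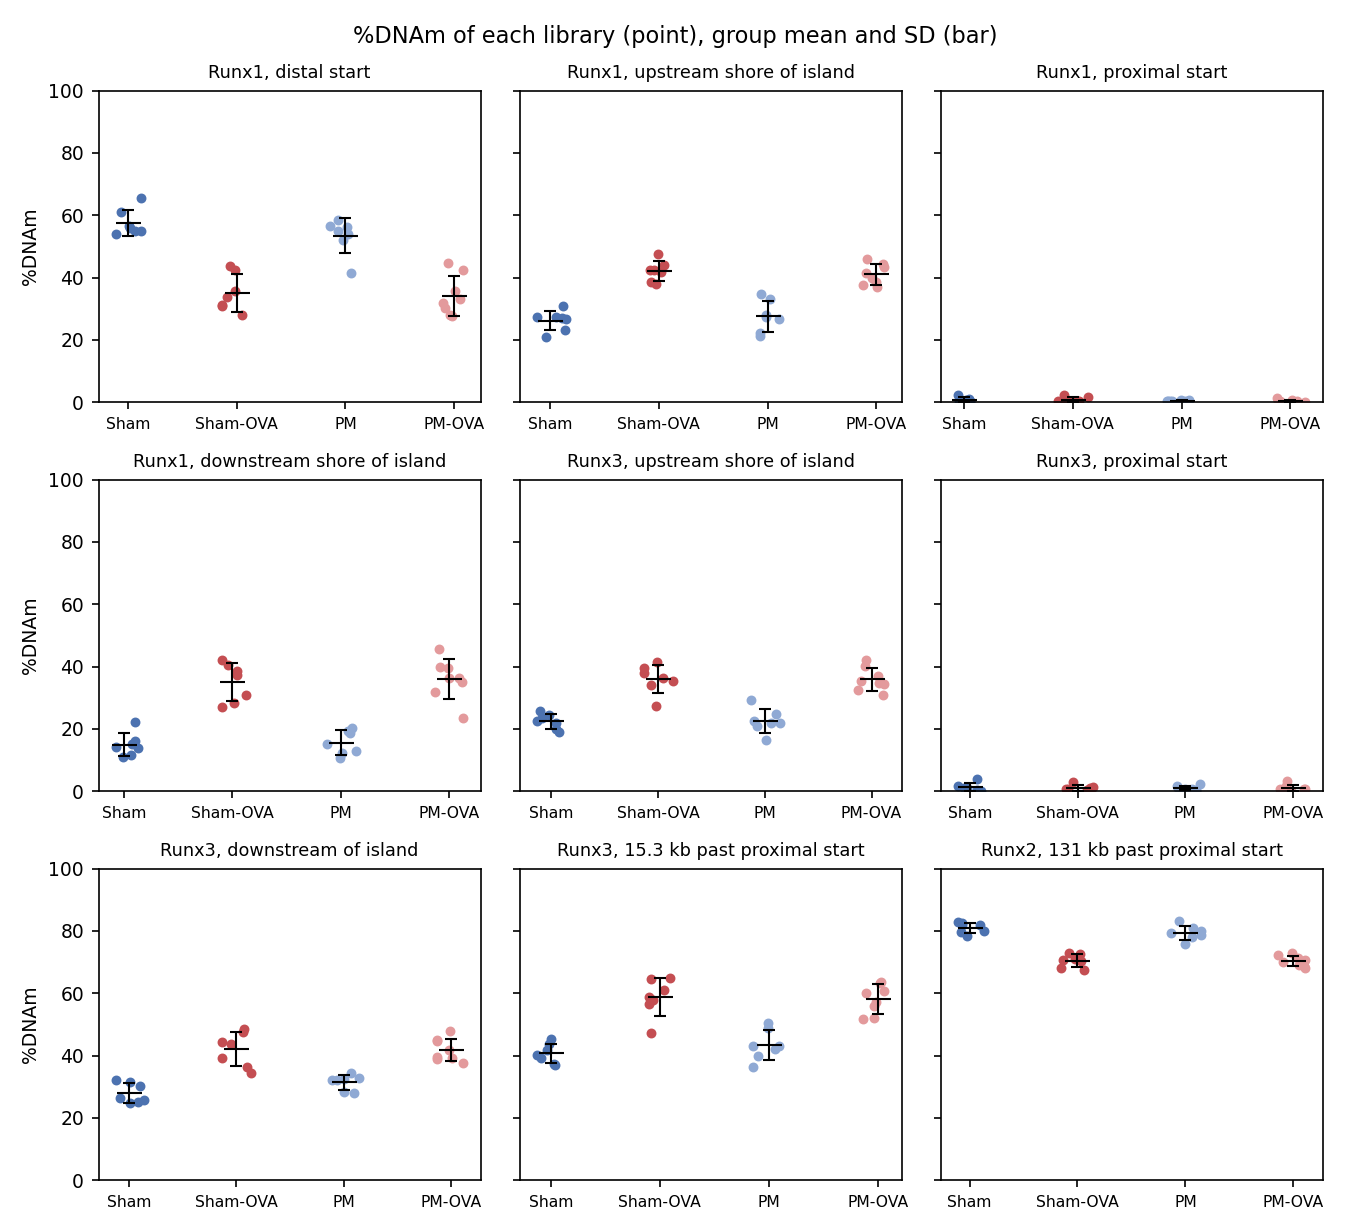
%DNAm of each library (points) with the group mean and SD (bars) in 9 windows of Runx1, Runx3 and Runx2. OVA groups are red and the others blue. The distal Runx1 start and the Runx2 window fall with OVA, windows on either side of both proximal islands rise, and the proximal starts stay near 0.

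Runx3 also had gains on both sides of its proximal start, chr4:135152496 (plus strand), 31.8 kb from the distal start at 135120652. Window 135152480-135152748, which holds the proximal start, had group means between 0.942 and 1.33%. Window 135150615-135151737, 1.32 kb upstream in intron 1, ran from 19 over a median of 22.4 to 25.8% in Sham and from 27.4 over 36.3 to 41.6% in Sham-OVA. In PM it ran from 16.3 over 22 to 29.4% and in PM-OVA from 30.9 over 35.1 to 42.2%. Each OVA library was thus above each library without OVA of the same dams, by differences of 13.6 points (adjusted p = 3.79e-06) and 13.4 points (adjusted p = 1.74e-06, limma).

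Between that window and the start, 135151738-135152479 moved little in points but passed the test, from 7.66 ± 0.632 to 10.2 ± 2.36 (adjusted p = 0.00935) and from 7.49 ± 1.33 to 9.42 ± 1.22 (adjusted p = 0.017, limma). The call in PM offspring was lost without PM-OVA replicates 7 and 8 (adjusted p = 0.0576) and with a block by the numbers in the library names (0.0942, limma). On the outer side, 135147643-135150614 gained 8.11 and 8.41 points and 135145248-135147642 gained 9.86 points in Sham offspring, from 62.4 to 72.3%. The gain on the upstream side therefore reached over several windows, and 135150615-135151737 was the one that passed 10 points.

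Downstream of the Runx3 island, 135155781-135158403 in intron 3 went from 28 ± 3.18 to 42 ± 5.51 (adjusted p = 2.21e-06) and from 31.5 ± 2.41 to 41.8 ± 3.64 (adjusted p = 7.79e-05, limma). The second value, 10.3 points, fell under the limit when any of PM replicate 6, PM replicate 7, PM-OVA replicate 1, PM-OVA replicate 2 or PM-OVA replicate 7 was left out, to 9.44 at the lowest. The largest Runx3 difference lay in intron 4, 15.3 kb past the proximal start, at 135166521-135169008. It ran from 37.1 over a median of 40.1 to 45.3% in Sham, from 47.1 over 58.9 to 65% in Sham-OVA, from 36.4 over 43 to 50.3% in PM, and from 51.7 over 58.7 to 63.7% in PM-OVA.

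That intron 4 window rose by 18.1 points in Sham offspring (adjusted p = 1.98e-06) and by 14.8 points in PM offspring (adjusted p = 1.38e-05, limma), without overlap in either. Its stretch with most CpGs holds 12 of them, shown in capitals.
Runx3 intron 4 chr4:135166599-135166898 (plus strand): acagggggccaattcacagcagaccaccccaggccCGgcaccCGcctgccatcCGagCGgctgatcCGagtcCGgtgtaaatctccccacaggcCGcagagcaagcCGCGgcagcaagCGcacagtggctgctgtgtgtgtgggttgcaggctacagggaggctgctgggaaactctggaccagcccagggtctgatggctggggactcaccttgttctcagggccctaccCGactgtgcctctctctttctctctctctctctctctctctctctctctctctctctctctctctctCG

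A pair of Runx3 windows were DMRs in Sham offspring and not in PM offspring. Window 135154221-135155780, with exon 3, went from 14.5 ± 3.12 to 25 ± 4.43 in Sham offspring (adjusted p = 1.37e-05) and from 19.2 ± 2.77 to 22.1 ± 2.75 in PM offspring (adjusted p = 0.158, limma). The interaction, the OVA difference in PM offspring minus that in Sham offspring, was -7.68 points (adjusted p = 0.552, limma). Its Sham call, at 10.6 points, was lost without Sham replicate 4, Sham-OVA replicate 4 or Sham-OVA replicate 5 (9.64 at the lowest), and the libraries overlapped in both kinds of offspring.

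Window 135175451-135177494, all within the last exon, went from 42.2 ± 5.8 to 60.1 ± 6.54 in Sham offspring (17.9 points, adjusted p = 7.61e-06) and from 45.5 ± 3.5 to 52.8 ± 4.73 in PM offspring (7.32 points, adjusted p = 0.024, limma). The call in PM offspring was lost without PM-OVA replicate 5 (adjusted p = 0.0514), without PM-OVA replicates 7 and 8 (0.0639), with a block by replicate number (0.0651) or by library name (0.0548), and with the library mean as a covariate (0.0803, limma). The interaction was -10.6 points (adjusted p = 0.575, limma), so a smaller OVA difference in the PM offspring was not shown for either window.

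Lower windows of Runx3 were few. In Sham offspring 3 were lower at an adjusted p under 0.05, none a DMR, or 12.5% against 22.3% of all tested windows, and in PM offspring 0, or 0% against 34.8%. Window 135128611-135130613 went from 44.4 to 40.3% in Sham offspring (-4.08 points, adjusted p = 0.0036, limma) and differed by -0.406 points in PM offspring (adjusted p = 0.773); it is named after its values were seen. Just past the proximal island, 135153127-135154220 went from 2.36 to 1.46% (-0.904 points, adjusted p = 0.0189, limma) against -0.527 points (adjusted p = 0.182) in PM offspring. Its Sham call was lost without Sham-OVA replicate 4 (adjusted p = 0.0578), on the percent scale (0.0575) and after centring (0.231, limma). At the end of the gene, 135177495-135181194 went from 72.6 to 70.1% (adjusted p = 0.0127), with -1.57 points in PM offspring (adjusted p = 0.086, limma). With a block by the numbers in the library names it passed the test in PM offspring (0.0372, limma).

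The distal start of Runx3 lies in a window that carries the name of Gm16225, 135119289-135121673, and so is not a member. Its %DNAm was 77.2 ± 2.04 in Sham, 69.1 ± 1.46 in Sham-OVA, 75.7 ± 4.66 in PM and 69.2 ± 2.25 in PM-OVA. It was lower with OVA, with differences of -8.12 points in Sham offspring and -6.44 points in PM offspring (adjusted p = 9.85e-05 and 0.000569, limma), the direction seen at the distal start of Runx1. It was looked up after the values of Runx1 had been seen.

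**Figure D3:**
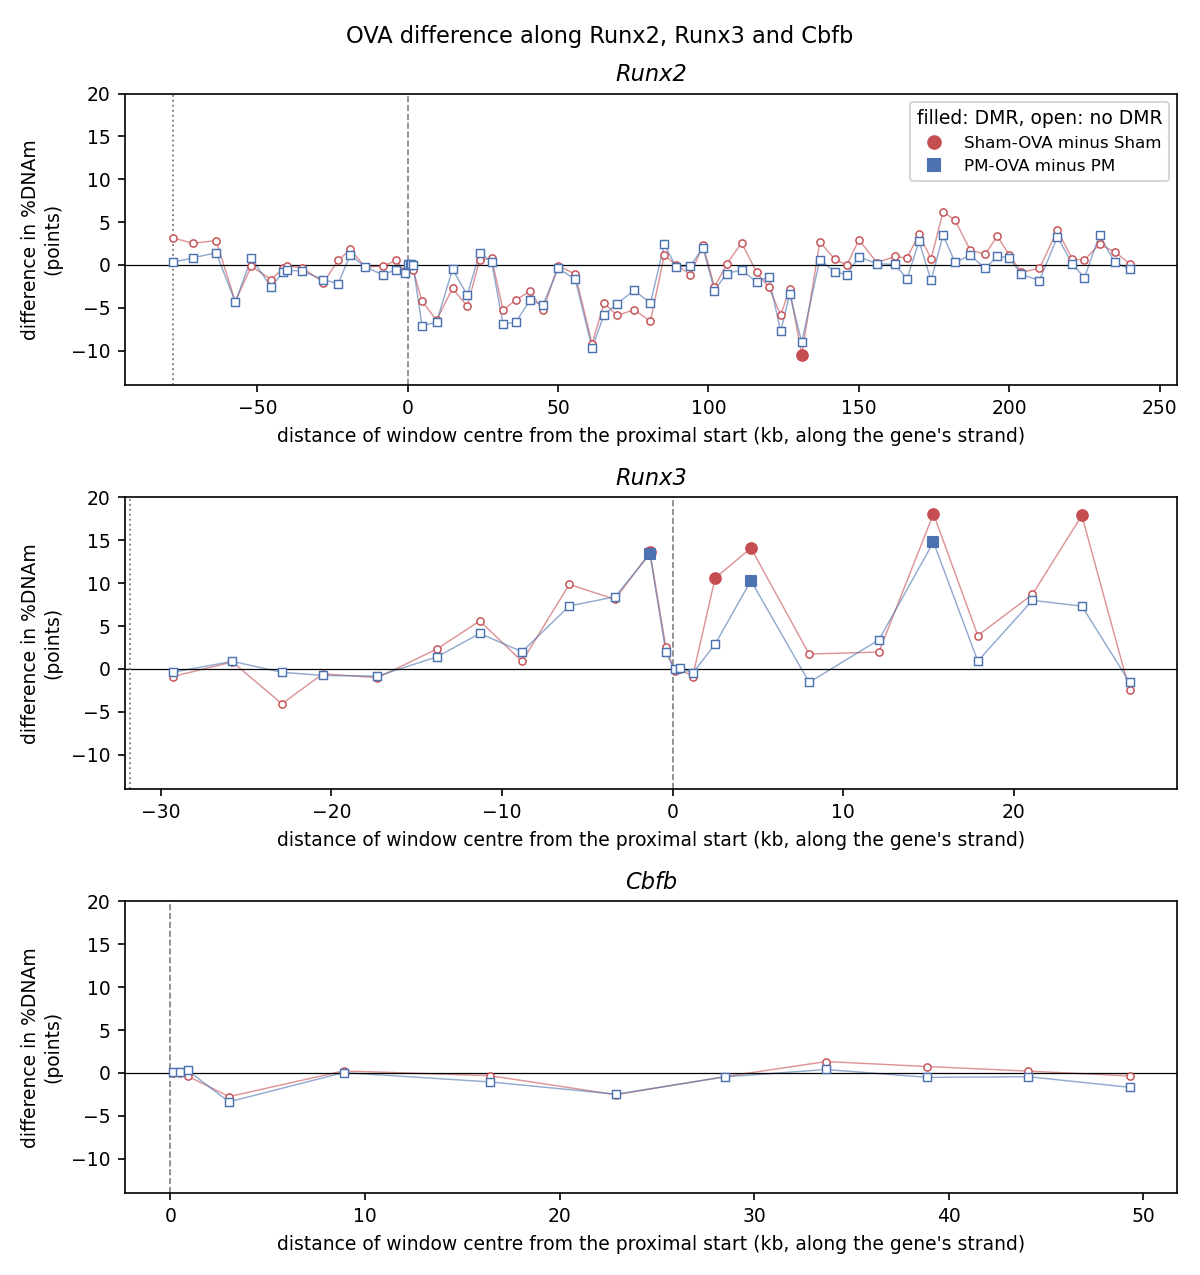
Difference in %DNAm (percentage points) along Runx2 (72 windows), Runx3 (24) and Cbfb (12), against the distance of the window centre from the proximal start in kb. Circles are Sham-OVA minus Sham, squares PM-OVA minus PM, filled symbols DMRs, dashed lines proximal starts and dotted lines distal starts. Runx3 gains on both sides of its proximal start, Runx2 falls over a broad part of its body, and Cbfb stays between -3.38 and 1.32 points.

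In Runx2 the larger differences were falls, while over the whole gene its calls lay near the background. Of its 72 windows 18.1% were higher and 25% lower in Sham-OVA at an adjusted p under 0.05, against 13.3% and 22.3% of all tested windows, and 6.94% and 33.3% in PM-OVA, against 9.26% and 34.8%. The 1 DMR of Runx2, 44602966-44607527, mostly the last exon (number 9) of the longest transcript and 131 kb past the proximal start, fell from 80.9 ± 1.7 to 70.5 ± 2.07 in Sham offspring (adjusted p = 2.37e-08, limma). Sham libraries ran from 78.2 over 81.8 to 82.7% and Sham-OVA libraries from 67.5 over 70.5 to 73%. In PM offspring it went from 79.3 ± 2.27 to 70.3 ± 1.73, which at -9.01 points was no DMR, though the libraries did not overlap there either (lowest PM 75.9%, highest PM-OVA 72.8%) and the adjusted p was 1.11e-07 (limma). Without Sham-OVA replicate 1 the Sham difference was -9.98 points. The interaction was 1.47 points (adjusted p = 0.809, limma). A second window, 44672788-44677915, fell by 9.21 and 9.69 points (adjusted p = 2.8e-08 and 4.57e-09, limma).

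These 2 windows stood in a broad stretch of small falls. With a boundary drawn at the DMR, 131 kb in, after the profile had been seen, 17 of the 33 Runx2 windows from the proximal start up to it were lower and 2 higher in Sham-OVA, with a median difference of -2.61 points. In PM-OVA 18 were lower and 1 higher, with a median of -2 points. Of the 23 windows beyond it, 0 were lower and 7 higher in Sham-OVA, and 2 were lower and 4 higher in PM-OVA. Over all tested windows 22.3% were lower and 13.3% higher in Sham-OVA, and 34.8% and 9.26% in PM-OVA. Without Sham replicate 1 the Sham counts were 17 lower and 1 higher up to the boundary and 0 and 7 beyond it. The count beside a boundary chosen in this way is a description.

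The starts of Runx2 showed no fall. The proximal windows 44734480-44735200, 44735201-44735834 and 44736237-44737036 hold 5 of its annotated protein-coding starts and were near 0, with 0.261 ± 0.212% in Sham and 0.148 ± 0.162% in Sham-OVA in the last of them. The window of the distal starts, 44811536-44817870, which spans 6335 bp, went from 64.3 ± 2.32 to 67.4 ± 1.43 in Sham offspring (3.16 points, adjusted p = 0.0176) and from 64.1 ± 1.43 to 64.4 ± 2.29 in PM offspring (0.316 points, adjusted p = 0.815, limma). Its direction was thus opposite to that at the distal start of Runx1, where the same 18-base element stands. Of the Runx2 windows, 15 overlap another annotated gene, and none of those was a DMR.

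Cbfb was nearly still. Its start window, 105170606-105170982, had group means from 0.22 to 0.31%. Its largest differences were -2.77 points in Sham offspring and -3.38 points in PM offspring, both at 105171735-105175625, the shore of its island, with means of 51.4 ± 2, 48.6 ± 2.94, 51.1 ± 1.91 and 47.7 ± 1.63% in Sham, Sham-OVA, PM and PM-OVA. The first had an adjusted p of 0.0625 and the second of 0.0158 (limma). The second was lost after centring (0.0726), with the library mean as a covariate (0.288), with a block by library name (0.0735) and without PM-OVA replicates 7 and 8 (0.0582). Under an adjusted p of 0.05, 1 of the 12 Cbfb windows was lower in Sham-OVA (8.33%, against 22.3% of all tested windows) and 3 were lower in PM-OVA (25%, against 34.8%). The window lower in Sham-OVA, 105190685-105196455, went from 91.8 ± 0.944 to 89.2 ± 1.07%.

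Maternal PM2.5 by itself gave no DMR at any member. Between PM and Sham, 11 member windows had an unadjusted p under 0.05, or 6.32%, against 5.79% of all tested windows, and 0 were DMRs (0% of all windows). Between PM-OVA and Sham-OVA the count was also 11, or 6.32%, against 5.96%, with 0 DMRs (0% of all windows). The interaction gave 15 at an unadjusted p under 0.05, or 8.62%, against 7.4%, and 0 DMRs (0% of all windows). The smallest adjusted p among the members was 0.72, 0.786 and 0.548 in these 3 comparisons (limma).

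The smallest p of PM against Sham and of the interaction in Runx2 belonged to the same window, 44552383-44557329. It had 75.2 ± 1.16% in Sham, 80.4 ± 2.3% in Sham-OVA, 78.7 ± 1.53% in PM and 79 ± 1.41% in PM-OVA. The Sham libraries, at 74.1 to 77.1%, did not overlap the PM libraries, at 77.2 to 81.8%, yet the adjusted p was 0.72 for PM against Sham and 0.548 for the interaction (limma). In Runx3 the smallest p of PM against Sham was that of 135154221-135155780 (4.77 points, adjusted p = 0.805), described above. That of PM-OVA against Sham-OVA was 135145248-135147642, where 69.2% stood against 72.3% (adjusted p = 0.786, limma).

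The remaining members with the smallest p of a comparison had differences of at most 3.28 points. In Runx1 they were 92706109-92710743 for PM against Sham (2.36 points, adjusted p = 0.829), 92697461-92698148 for PM-OVA against Sham-OVA (-0.662 points, adjusted p = 0.816) and 92710760-92715169 for the interaction (3.28 points, adjusted p = 0.571, limma). For Runx2 the distal start window had the smallest p of PM-OVA against Sham-OVA (-3.06 points, adjusted p = 0.816). In Cbfb these were 105217056-105222842 for PM against Sham (1.64 points) and the interaction (-1.33 points), and 105201982-105206748 for PM-OVA against Sham-OVA (0.61 points).

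**Figure D4:**
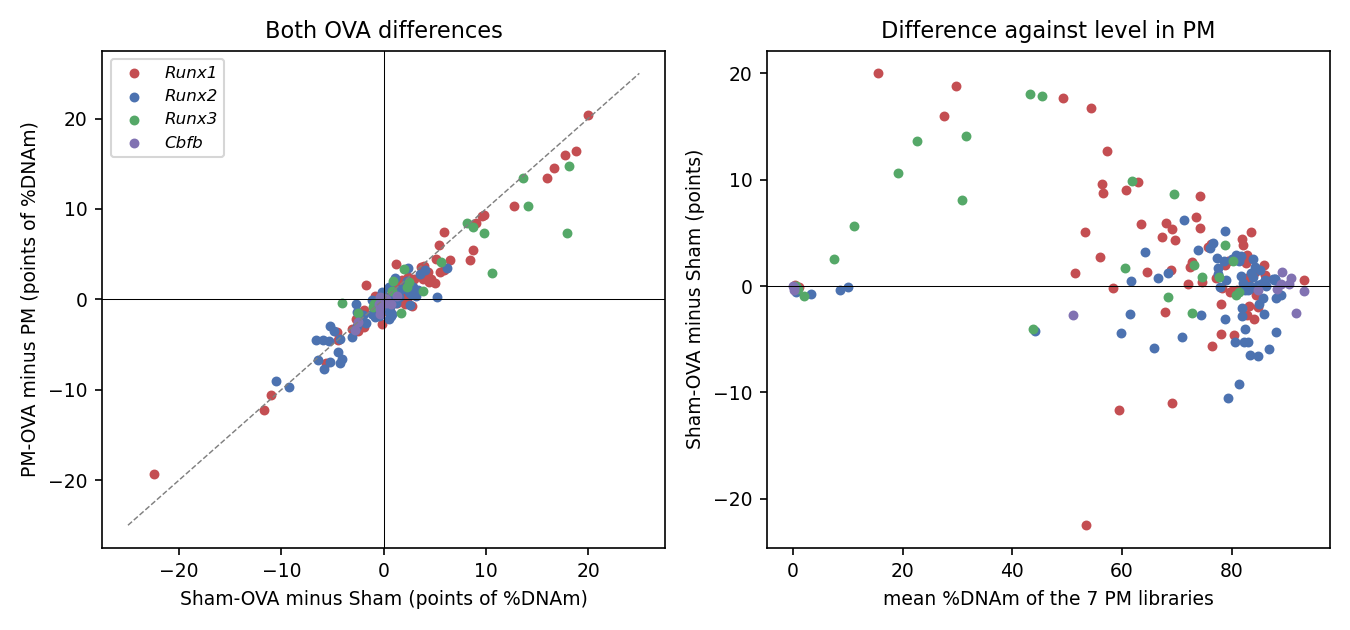
Left, PM-OVA minus PM against Sham-OVA minus Sham for the 174 windows (points of %DNAm, coloured by gene, dashed line at equal values). Right, Sham-OVA minus Sham against the mean %DNAm of the 7 PM libraries. The windows with the largest differences lie in the same quadrants in both comparisons and between 10 and 80% DNAm.

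The 2 OVA comparisons use different libraries. Of the 15 windows that were a DMR in either, 12 were DMRs in both, 3 in Sham offspring only and 0 in PM offspring only, and all 15 moved in the same direction in both. That is 80%, 20% and 0% of the 15, beside 50.9%, 35.2% and 14% of the 2334 windows that were a DMR in either comparison over the whole table. These 15 are 8.62% of the members, where 0.901% of all tested windows were a DMR in either comparison. Of all 174 windows, 143 had the same sign in both comparisons, or 82.2%, near the 81.8% of all tested windows.

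DMRs came from windows of intermediate methylation. With the level taken from the PM libraries, which are no part of the comparison of Sham-OVA with Sham, 26 member windows lay between 10 and 60%, and 11 of them were higher DMRs (42.3%) and 2 lower DMRs (7.69%). Over all tested windows in that range 3.38% were higher and 0.633% lower. None of the 16 member windows under 10% was a DMR, and 2 of the 132 over 60% were (1.52%), both lower. Runx1 had 14 windows in the middle range and Runx3 had 8 of its 24, whereas Runx2 had 3 and Cbfb 1. The 15 DMR windows held a median of 2.06 CpGs per 100 bp (range 1.1 to 4.54), the other 159 a median of 1.28, and 9 of the 15 overlapped an exon (60%), as did 36 of the other 159 (22.6%).

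Left out one by one, the libraries gave 14 to 17 member DMRs in Sham offspring and 10 to 14 in PM offspring. Without Sham replicate 1 the 15 differences between Sham-OVA and Sham ran from -22.8 to 19.9 points and each kept its direction. At the distal Runx1 start the difference without it was -22.8 points, at the downstream shore of Runx1 19.9 points and in intron 4 of Runx3 18 points. There were then 16 member DMRs, 12 higher and 4 lower (0.452% and 0.298% of all windows tested without it). Under an adjusted p of 0.05, 49 member windows were then higher and 32 lower (28.2% and 18.4%, against 12.4% and 20.5% of all windows tested without it). For PM against Sham 13 member windows then had an unadjusted p under 0.05 (7.47%, against 5.64%) and for the interaction 15 (8.62%, against 7.28%), with smallest adjusted p among the members of 0.819 and 0.558 (limma). The Cbfb window 105217056-105222842 had 1.31 points for PM against Sham without it and -0.999 for the interaction, and the Runx2 window 44552383-44557329 had 3.43 and -4.85.

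Averaged over all its windows, Runx1 stood at 67 ± 0.468% in Sham, 67.5 ± 0.54% in PM, 69.3 ± 0.28% in PM-OVA and 69.5 ± 0.721% in Sham-OVA. The lowest OVA library, at 68.6%, was above the highest of the others, at 68.3%, while within each pair of neighbours in that order the ranges overlapped apart from the step from PM to PM-OVA. Runx3 had the same order, with 46.5 ± 0.696% in Sham, 47.4 ± 1.06% in PM, 50.8 ± 0.873% in PM-OVA and 51.1 ± 1.43% in Sham-OVA. Its step from PM to PM-OVA was not free of overlap, since the highest PM library was at 49.6% and the lowest PM-OVA library at 49.4%.

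Runx2 ran from 70.9 ± 0.361% in PM-OVA over 71.2 ± 0.553% in Sham-OVA and 71.8 ± 0.273% in Sham to 72.3 ± 0.348% in PM, with overlap between each pair of neighbours. The mean over all tested windows, given above, ran in the same order. As gene mean minus library mean, Runx2 stood at 2.72 points in Sham and 2.37 in Sham-OVA, and at 2.84 in PM and 2.48 in PM-OVA. Cbfb lay between 63.3 ± 0.336% in PM-OVA and 64.1 ± 0.353% in PM. Such a mean takes in gains, falls and windows that moved little. For Runx1 it moved by 2.52 and 1.77 points while single windows moved by 20 or more.

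Over the 29 libraries, the gene mean minus the library mean of Runx1 and Runx3 correlated at r = 0.944, and at 0.413 after the group means had been subtracted. That of Runx2 correlated with Runx1 at -0.558 and with Runx3 at -0.619 (0.166 and -0.152 after subtraction). Since the points share their groups and libraries, no p is given. Among 13282 genes with at least 5 windows, the most like Runx1 were Wasl (0.971), Ctdsp2 (0.967) and Epc1 (0.967). Those most like Runx3 were Prkce (0.979), Gm28308 (0.978) and Casz1 (0.977), and they were Ptpn18 (0.806), Rassf5 (0.801) and Zfp518b (0.795) for Runx2 and Abcf2 (0.727), Wdr48 (0.672) and Golgb1 (0.666) for Cbfb. After subtraction of group means the closest was Knop1 for Runx1 (0.768), Gm28308 for Runx3 (0.801), Ccdc92b for Runx2 (0.707) and Abcf2 for Cbfb (0.751).

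Partners, modifiers and targets of Runx proteins were taken from lists. Of 26 listed cofactors 24 had windows analysed here, 473 in all, of which 4 were higher and 4 lower DMRs in Sham-OVA (1.69% together) and 3 and 3 in PM-OVA (1.27%). Of all tested windows 0.479% were higher and 0.296% lower DMRs in Sham-OVA and 0.263% and 0.321% in PM-OVA. At an adjusted p under 0.05, 123 cofactor windows were higher and 71 lower in Sham-OVA (26% and 15%, against 13.3% and 22.3% of all) and 85 and 109 in PM-OVA (18% and 23%, against 9.26% and 34.8%), with median differences of 0.398 and 0.0316 points beside -0.414 and -1.03 over all tested windows and 0.529 and -0.000172 over the members. Cdk6, a cyclin-dependent kinase that binds Runx1, had 3 of the falls in Sham offspring and 2 in PM offspring, the largest at chr5:3492158-3495254 from 83 to 67.7% and from 82.6 to 67.3%. Smad3, the mediator of TGF-β signals that acts with Runx proteins, fell at chr9:63737911-63740246 from 63.5 to 49.4% and from 64.8 to 50.3%. Ets1, which binds DNA together with Runx1, rose at chr9:32713996-32718305 from 38.2 to 51.3% and from 39.6 to 50.9%. The other gains were in Smurf1 and Smurf2, ubiquitin ligases that act on Runx2, and in the coactivator Wwtr1, and the one in Smurf1 was a DMR in Sham offspring (10.1 points) and rose by 7.21 points in PM offspring (adjusted p = 0.000403, limma).

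Known Runx targets had 25 of 28 genes with windows, 139 windows in all, with 4 higher and 3 lower DMRs in Sham-OVA (5.04% together) and 4 and 4 in PM-OVA (5.76%), beside the same shares of all windows as above. At an adjusted p under 0.05, 32 were higher and 32 lower in Sham-OVA (23% each) and 24 and 41 in PM-OVA (17.3% and 29.5%), against 13.3% and 22.3% and against 9.26% and 34.8% of all. Their medians were -0.106 and -0.344 points, beside -0.414 and -1.03 over all windows. The zinc finger repressor Gfi1 held 3 of the gains, led by chr5:107721362-107721744 from 15.9 to 43.4% in Sham offspring (adjusted p = 1.69e-06) and from 14.4 to 37.3% in PM offspring (adjusted p = 4.18e-06, limma). Spi1, which encodes the myeloid factor PU.1, moved both ways. It fell at chr2:91096853-91099453 from 67.7 to 51.9% and from 66.9 to 50.1%, and rose at chr2:91113404-91115447 from 41.5 to 55.3% and from 40.5 to 54%. Another window, chr2:91080437-91084602, was a DMR in PM offspring alone (-11.7 points, against -9.81 in Sham offspring). The integrin Itgal and the myeloperoxidase gene Mpo each had 1 window that fell, by 13.5 and 11.8 points in Sham offspring and by 10.5 and 10.7 points in PM offspring.

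Marker genes of lung and immune cell types were counted in the same way, beside medians over all tested windows of -0.414 points in Sham offspring and -1.03 in PM offspring and DMR shares of 0.479% higher and 0.296% lower in Sham offspring and 0.263% and 0.321% in PM offspring. The list of T and B lymphocyte genes (57 windows) had 0 higher and 6 lower DMRs (10.5%) in either comparison, in Ptprc, Cd2 and Cd79b, and medians of -1.31 and -2.35 points. Ptprc, which leucocytes in general express, fell by up to 19.1 points. The mean %DNAm of the list was 68.2 to 69.9 in Sham, 65.6 to 67.2 in Sham-OVA, 69 to 70.3 in PM and 66 to 67.7 in PM-OVA. At an adjusted p under 0.05, 19.3% of its windows were higher and 40.4% lower in Sham-OVA, and 15.8% and 47.4% in PM-OVA. The shares of all tested windows were 13.3% and 22.3%, and 9.26% and 34.8%. Eosinophil and myeloid genes (42 windows) had 2 lower DMRs (4.76%) in Sham-OVA, in Epx and Il5ra, and 0 in PM-OVA, where the same windows differed by -9.22 and -9.18 points (adjusted p = 1e-06 and 2.94e-06, limma), with medians of -0.957 and -1.2 points and list means of 72.1 to 73.7, 70.5 to 72.2, 72.8 to 74.2 and 70.7 to 71.9. Endothelial genes (156 windows) had 7 higher DMRs in Sham-OVA (in Eng, Egfl7, Cdh5 and Pecam1) and 2 in PM-OVA (in Egfl7 and Pecam1), while the other 5 rose there by 9.59 to 9.83 points, and 1 lower in each, in Pecam1 (5.13% and 1.92% in all), with medians of 0.94 and 0.509 points and list means of 64.5 to 66.3, 65.9 to 68, 64.1 to 67.4 and 65.8 to 67.6. At an adjusted p under 0.05, 38.5% of the endothelial windows were higher and 13.5% lower in Sham-OVA, and 35.9% and 26.9% in PM-OVA. For the eosinophil and myeloid windows the shares were 11.9% and 35.7%, and 7.14% and 40.5%.

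The alveolar epithelial list (83 windows) had 1 higher DMR, in Hopx, and 1 lower, in Rtkn2, in Sham-OVA, and the latter again in PM-OVA (2.41% and 1.2%), where the Hopx window rose by 5.65 points (adjusted p = 0.00311, limma), with medians of 1.5 and 0.708 points and list means of 64.7 to 66.5, 65.8 to 68, 65.3 to 66.5 and 65.6 to 66.9. Smooth muscle and fibroblast genes (97 windows) had 0 DMRs, with medians of -1.02 and -2.11 points and list means of 69.1 to 70.3, 68 to 70, 69.2 to 70.9 and 67.9 to 69.2. At an adjusted p under 0.05, 18.6% of these windows were higher and 37.1% lower in Sham-OVA, and 11.3% and 51.5% in PM-OVA. For the alveolar epithelial windows the shares were 33.7% and 3.61%, and 20.5% and 7.23%. Without Sham replicate 1, the higher and lower DMRs in Sham offspring were 6 and 4 for the cofactors, 4 and 3 for the targets, 0 and 5 for lymphocytes, 0 and 1 for myeloid cells, 7 and 1 for endothelium, 1 and 1 for alveolar epithelium and 0 and 0 for smooth muscle and fibroblasts. The part of these list differences in the differences at Runx1, Runx2 and Runx3 was not tested.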

How the data were processed

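WGMS of lung DNA from 29 mouse libraries was analysed. The authors trimmed reads (Trim Galore) and used the DRAGEN methylation pipeline 3.10 for mapping to GRCm38 and for calls, according to the methods and labels. The deposited values are percent methylation, which the authors averaged in SeqMonk 1.48.1 over windows of 100 CpG cytosines with at least 10 informative ones, kept where they overlapped an Ensembl gene. Replicates were not pooled, and no normalisation between libraries is described. Coverage per window is not part of this table, so the precision given rests on the number of libraries. RNA data were not analysed here.

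From these values, the log2 ratio of percent methylated to percent unmethylated, each plus 1, was fitted with limma 3.58.1 in R 4.3.3 for windows with at least 3 values in each group, with the 4 groups in 1 model, 5 contrasts (the OVA difference in Sham and in PM offspring, PM against Sham, PM-OVA against Sham-OVA, and the interaction) and Benjamini-Hochberg adjustment over all 259167 windows. Differences are of mean percent. No window was dropped or imputed among the members. The fit was also run on simulated data, with no outcome given here. Windows were annotated with GENCODE M21, and sequences were read from the GRCm38.p6 genome and RefSeq promoters by Python. Stretches shown from windows are the 300 bases outside exons with most CpGs.

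Named in the text are each member window that was a DMR with OVA, those that hold a start of a protein-coding transcript, those next to a DMR where a result turns on them, and for each gene the window with the largest OVA difference and the smallest p of the other comparisons. Genes of a list are named where a window was a DMR. Members and lists were chosen with earlier results of these data known. Alternatives covered the scale and offset, windows without missing values, centring, the library mean as covariate, the groups fitted, replicate blocks, thresholds and libraries left out.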

Additional observations from a re-analysis of the deposited data

Results flagged for a closer look

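In 15 of 220 sets of libraries of 1 group, over the windows named above and the gene means, the highest or lowest library stood apart from the rest by Dixon's test, where chance gives about 1 in 20. None of the flags was for Sham replicate 1. Beside DMRs, PM replicate 5 had 22.8% at the Runx1 window 92693074-92695516, with the next library at 29.8%, and PM replicate 1 had 41.5% at the distal Runx1 start, with the next at 52%. Both lie in the PM group, and the OVA differences of these windows stayed past 10 points without them.

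At proximal starts, where levels are near 0, Sham replicate 4 had 4.03% and Sham-OVA replicate 6 had 3% at the Runx3 start, Sham replicate 7 had 2.27% and PM-OVA replicate 1 had 1.23% at the Runx1 start, and Sham replicate 4 had 4.24% at the Runx2 window 44734480-44735200. In Runx3, Sham-OVA replicate 6 also had 15.2% at 135151738-135152479 (next 10%), PM-OVA replicate 1 had 44.8% at 135147643-135150614 (next 40.3%) and Sham replicate 4 had 79% at 135169009-135171776 (next 77%).

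Further from starts, PM replicate 6 had 79.7% at the Runx1 window 92681523-92684681 and Sham replicate 3 had 65.4% at 92700406-92706055. In Runx2, PM replicate 2 had 82.5% at 44597108-44601791 and PM replicate 3 had 61.1% at the distal start. Sham-OVA replicate 1 had 54.5% at the Cbfb window 105171735-105175625, where the difference from Sham passed the test without it (-3.75 points, adjusted p = 0.00609, limma). No OVA difference was shown to differ between Sham and PM offspring.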

How the results depend on the processing

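Counts of member DMRs were 15 in Sham offspring and 12 in PM offspring. The lower member windows in PM offspring at an adjusted p under 0.05 went from 38 to 24 with the library mean as covariate. The higher ones went from 40 to 68 after centring. An adjusted p under 1e-06 left 7 and 5, with 0 of Runx3. A minimum difference of 5 points gave 42 and 31, and no minimum 84 and 78. The share of all tested windows at 5 points was not counted, so 42 and 31 have no background beside them. Apart from these changes, the counts stayed within 1.5 times on the settings tried. Libraries left out one at a time gave 14 to 17 in Sham offspring and 10 to 14 in PM offspring. In those fits 12 of the 15 Sham calls and 9 of the 12 PM calls were kept throughout. The count was 0 to 0 for both comparisons of PM with Sham offspring and for the interaction.

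Centring, which by its construction adds points to windows near 0 in a library below the mean, brought the start windows of Runx1 (0.749 points, adjusted p = 0.0187, and 0.772 points, 0.0156, for the window 92698158-92698889 upstream), Runx2 (0.796 and 0.722 points, adjusted p = 0.00133 and 0.000136) and Cbfb (0.55 points, adjusted p = 0.0442, limma) past the test in PM offspring.

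The gene mean depended on how windows were averaged. With the median over windows, the OVA difference became 0.564 instead of 1.77 points for Runx1 in PM offspring, 8.81 instead of 4.6 and 5.59 instead of 3.38 points for Runx3 in Sham and PM offspring, and 0.503 instead of -0.366 points for Cbfb in Sham offspring. The cause was not tested.

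Replicate numbers of the titles tied the libraries weakly at most. Over 42 pairs with the same number from different groups, deviations from the group means correlated at -0.0409 to 0.104. Their mean was 0.0169, against -0.00259 for pairs with different numbers. Of 28 libraries, 9 correlated best with a library of their own number. Whether the numbers mark pairs was not tested. With the replicate block the DMR counts were 15 and 12, and 0 in the other 3 comparisons. The names of 10 libraries carry another number than their titles. By the numbers in the names, a choice made after seeing the data, 36 pairs correlated at -0.0283 to 0.104, 7 of 26 libraries correlated best with their own number, and the replicate block gave 15 and 12 DMRs, and 0 in the other 3 comparisons. The adjusted p of the last-exon window of Runx3 in PM offspring was 0.0651 with the block and 0.0803 with the library mean as a covariate, against 0.024. The coverage behind each window's value is not in the table, and its effect on small differences was not tested.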
